A study of Mus musculus with 6 samples.

Results

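The genes described here encode the enzymes that build the sugar chains of mucins and blood-group antigens, together with their closest relatives by gene name. They were chosen by name alone: protein-coding genes of the Galnt, Gcnt, B3gnt, B3galt, B4galt, B4galnt, Fut, St3gal, St6gal (with St6galnac), St8sia and Chst families. The rule took 92 of the 54532 genes in the deposited table, under 91 symbols, since St6galnac2 is listed under 2 gene identifiers. The table holds colon RNA of C57BL/6 mice at postnatal day 56, with 3 libraries labelled IL10-KO (genotype IL10-/-) and 3 labelled WT (wild type). Interleukin 10 restrains immune responses, and mice that lack it are a model of colitis. Neither the targeted allele nor any treatment is stated in the sources used here, and nothing there says that the libraries of a label came from separate mice. P-values therefore measure the spread between these libraries, which may be technical.

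In mucin-type O-glycosylation, Galnt enzymes attach N-acetylgalactosamine to serine or threonine in the Golgi. Core enzymes then add galactose or N-acetylglucosamine, B3gnt, B3galt and B4galt enzymes lengthen the chains, and fucose, sialic acid or sulfate cap them. In the colon such chains make up most of the mass of the secreted mucin Muc2 and serve gut bacteria as food and as attachment sites. The name rule is wider than its subject. It also takes in enzymes of glycolipids (St3gal5, B4galnt1, B3gnt5), of N-linked glycans (Fut8) and of glycosaminoglycans (B4galt7, Chst12, Chst14, Chst15).

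Levels are FPKM (reads relative to gene length and sequencing depth), in the authors' own scaling, and rest on 13107941 to 15797928 reads per library. The libraries labelled WT did not resemble each other closely. Across the 12668 genes with a mean of at least 1 FPKM, pairs labelled IL10-KO correlated with each other at r = 0.935 to 0.961 (Pearson, log2 scale) and pairs labelled WT at 0.795 to 0.864; genes are not independent replicates. The targeted gene, Il10, had 13.8, 10.6 and 14.5 FPKM under the IL10-KO label, against 0.757, 0.173 and 0.177 FPKM under the WT label. More Il10 RNA under the IL10-KO label goes against a loss of the RNA, so directions are given by label only. Of 9 listed myeloid markers, 8 had positive fold changes, beside 6853 of all 12668 tested genes. For 5 of the 9 every IL10-KO library lay above every WT library, as for 8.84% of all tested genes. The groups overlapped for Lyz2, Cd68 and Csf1r, and for Adgre1, whose log2 fold change was -0.34. S100a8 and S100a9, calprotectin genes of neutrophils, were called (limma). S100a8 was at 1153, 671 and 282 FPKM in IL10-KO, against 0.0893, 0 and 0.223 FPKM in WT, and S100a9 at 382, 462 and 225 FPKM in IL10-KO, with no read in WT. The part of these cells in the results was not tested. WT library 2 stood apart in some of the 6 genes examined that differ along the length of the colon, a set chosen after its values were seen. The posterior gene Hoxb13 had no read there and 8.52 to 58.4 FPKM in the other two WT libraries, and the proximal colon enzyme gene Car1 was at 31511 FPKM there against 117 and 456 FPKM in the other two. In the libraries labelled IL10-KO, Hoxb13 was at 6.03 to 25.8 and Car1 at 481 to 5716 FPKM. Aqp8 and Slc26a3 were also highest in WT library 2, but Hoxb6 was not (30.9 FPKM there, against 33.4 FPKM in IL10-KO library 1), and Hoxd13, at 0.061 FPKM there, was about as low in IL10-KO libraries 2 and 3 (0.102 and 0 FPKM). WT library 3 had the most muscle RNA, with a mean log2(FPKM + 1) over 12 smooth muscle markers of 8.55, against 3.45 to 5.63 in the libraries labelled IL10-KO and 6.06 in each of the other two WT libraries. It also had the highest share of mitochondrial reads, 43.4%, against 8.61 to 22.0% in the IL10-KO libraries and 11.7 and 20.3% in the other two WT libraries. Every one of the 16 listed epithelial markers had reads in each library, and their mean was 8.45 to 9.25 in the libraries labelled IL10-KO and 7.29 to 9.90 in those labelled WT. The 16 include Car1, Aqp8 and Slc26a3, all highest in WT library 2, which raised its mean. In bulk tissue, fewer cells of a type and less RNA per cell cannot be told apart.

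For 12 of the tested genes WT library 2 alone lay more than 1 log2 unit outside the range of the other 5 libraries, 5 of them above it and 7 below it. These were 9.43% of the tested members above and 13.2% below, against 4.36% and 1.71% of all tested genes. The region upstream of 4 of the 12, picked after their values were seen, is shown here. B4galnt2 and St3gal5 were highest in WT library 2, and B3gnt5 and St3gal3 were lowest there. Each sequence runs from 250 to 31 bases before the RefSeq start (GRCm38.p6), outside the listed coordinates of its own gene. RefSeq windows were found for 70 of the 91 symbols. Capitals mark TTTAT or its reverse complement ATAAA, the short core bound by CDX factors.
B4galnt2 (chr11:95914902-95915121, minus strand): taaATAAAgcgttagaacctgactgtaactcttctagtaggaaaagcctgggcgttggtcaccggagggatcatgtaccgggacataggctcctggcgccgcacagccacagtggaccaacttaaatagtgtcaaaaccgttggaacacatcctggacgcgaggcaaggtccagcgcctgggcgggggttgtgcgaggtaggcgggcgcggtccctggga
St3gal5 (chr6:72097358-72097577, plus strand): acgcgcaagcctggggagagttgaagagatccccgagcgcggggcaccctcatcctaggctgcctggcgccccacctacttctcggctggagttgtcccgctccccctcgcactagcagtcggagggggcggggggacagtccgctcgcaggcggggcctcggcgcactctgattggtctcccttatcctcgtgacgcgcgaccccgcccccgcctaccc
B3gnt5 (chr16:19759984-19760203, plus strand): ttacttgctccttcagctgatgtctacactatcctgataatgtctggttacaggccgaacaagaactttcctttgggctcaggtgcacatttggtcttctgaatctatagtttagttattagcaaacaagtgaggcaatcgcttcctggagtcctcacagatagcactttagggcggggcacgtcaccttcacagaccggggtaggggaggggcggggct
St3gal3 (chr4:118134977-118135196, minus strand): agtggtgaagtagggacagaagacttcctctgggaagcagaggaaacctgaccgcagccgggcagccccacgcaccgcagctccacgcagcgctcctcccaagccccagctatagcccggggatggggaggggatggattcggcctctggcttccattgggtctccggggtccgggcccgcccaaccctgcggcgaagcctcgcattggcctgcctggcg
Searched on both strands, TTTAT matched once, in B4galnt2, with 242 bases between the match and the start. It occurs in 33.5% of all 32851 windows of this length. The HOXB13 motifs CAATAAA (in 3.81% of windows; its last bases overlap the CDX core) and TCGTAAA (in 0.417%) matched none of the 4, nor did the STAT motif TTCNNNGAA (in 6.27%). These letters describe the windows only.

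Of the 92 genes, 53 passed the filter of a mean of at least 1 FPKM over the 6 libraries and were tested. B4galt2 (mean 1.07 FPKM) lay just inside the filter, and the second St6galnac2 identifier and Galnt5 (0.766 and 0.765 FPKM) just outside it. A mean above 50 FPKM was reached by 7 genes: B3gnt3, B3galt5, St6galnac6, St3gal4, Fut2, B3gnt7 and B4galt1. Of the 39 genes not tested, 36 had reads and 3 (Chst9, Galntl5 and B3gnt4) had none in any library.

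None of the 53 tested genes passed the threshold between the labels (limma, Benjamini-Hochberg adjusted p under 0.05 over all tested genes), in either direction. Of all 12668 genes, 0.182% were called higher and 0% lower in the libraries labelled IL10-KO. At an unadjusted p under 0.05, 7 of the 53 were higher and 1 lower, against 6.14% and 4.03% of all tested genes. All 3 libraries labelled IL10-KO lay above all 3 labelled WT for 8 of the 53, and below them for 5, against 8.84% and 7.89% of all tested genes. B4galt2 and St3gal5, both on the lower side, and Galnt18 and St8sia5, whose groups overlapped, averaged under 1 FPKM in the IL10-KO libraries and passed the filter through the WT libraries, which favoured negative fold changes for them. The log2 fold change, IL10-KO minus WT on the log2(FPKM + 1) scale, was positive for 31 and negative for 22, beside 6853 and 5815 of all 12668 tested genes. Its median was 0.13, beside 0.04 over all tested genes. An exact permutation test of 3 against 3 libraries cannot give a two-sided p below 0.1.

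**Figure D1:**
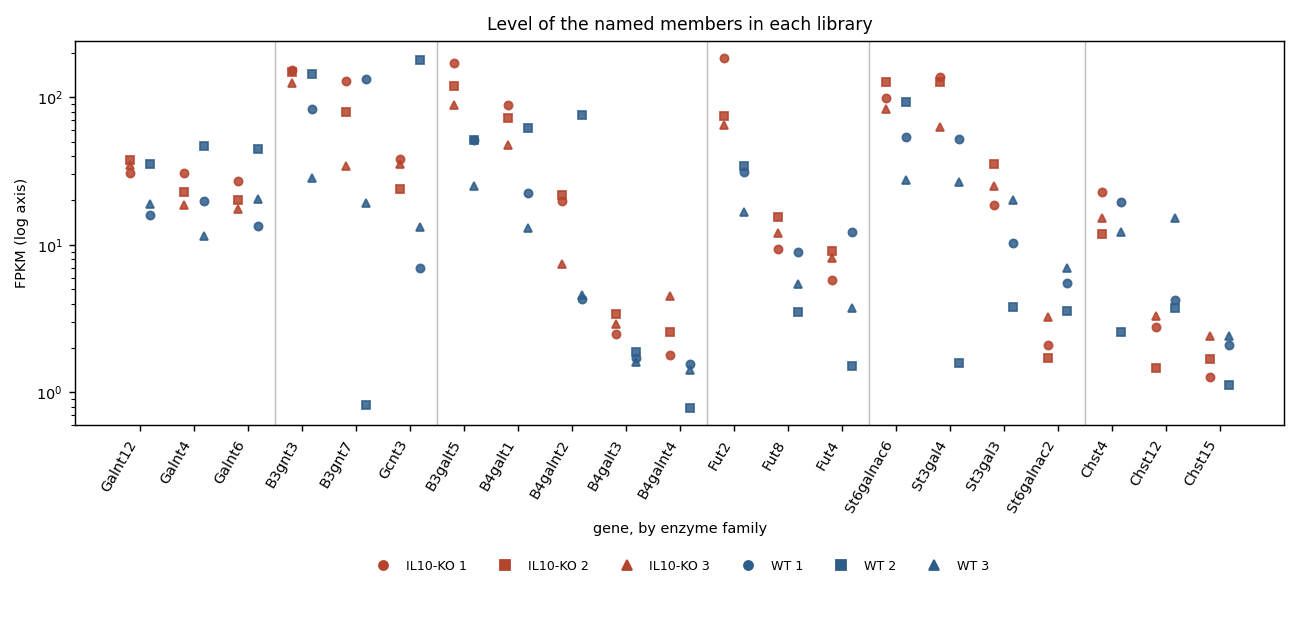
FPKM (log axis) of the 21 named genes in each library, IL10-KO to the left of WT for each gene; the marker shape is the replicate number. B3galt5 and Fut2 lie higher in all 3 libraries labelled IL10-KO (64.3 FPKM or more) than in any labelled WT (51.2 FPKM or less), while WT library 2 stands far from both other WT libraries for B3gnt7, Gcnt3, B4galnt2 and St3gal4.

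**Figure D2:**
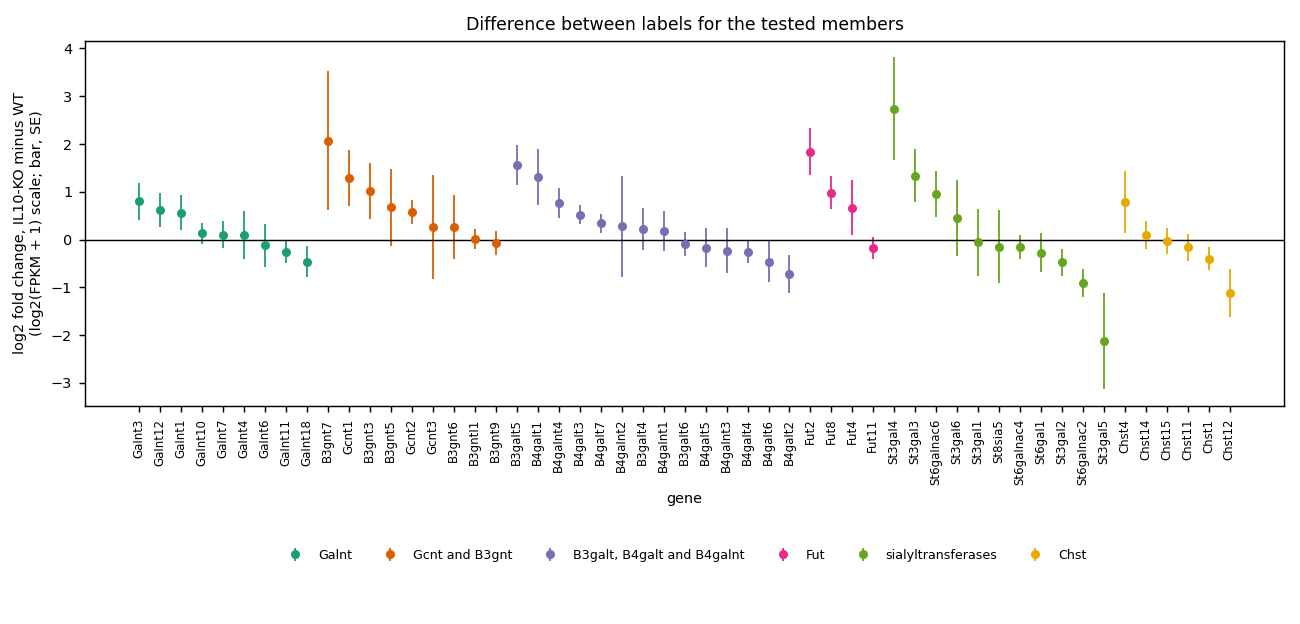
Log2 fold change (IL10-KO minus WT, log2(FPKM + 1) scale) of the 53 tested genes by family; bars are standard errors from limma. The values run from -2.13 (St3gal5) to 2.74 (St3gal4), and none passed the threshold.

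Chain initiation. The Galnt genes start O-glycans, and none passed the test between the labels. Of 19 listed, 9 were tested, with 6 positive and 3 negative fold changes, a median of 0.11 and 0 called. Without WT library 3, 4 of the 9 were positive and the median was -0.07. Galnt12, whose human counterpart is abundant in colon, was at 30.8, 37.5 and 35.0 FPKM in the IL10-KO-labelled libraries, against 15.9, 35.4 and 18.8 FPKM in those labelled WT. Its log2 fold change was 0.62 (SE 0.35, adjusted p = 0.599). WT library 2 lay within the IL10-KO range and the other two WT libraries below it. Galnt4, which prefers peptides that already carry a sugar, was at 30.6, 22.9 and 18.7 FPKM in the IL10-KO-labelled libraries and at 19.7, 46.5 and 11.4 FPKM in those labelled WT. Galnt6 was at 26.9, 20.2 and 17.5 FPKM in IL10-KO and at 13.3, 44.3 and 20.6 FPKM in WT, with 11.4% of its exon bases shared with the antisense gene Galnt6os. For both genes WT library 2 was the highest of all 6 libraries, and the groups overlapped (log2 fold changes 0.09 and -0.12). Galnt3 and Galnt1 had log2 fold changes of 0.80 and 0.56, and Galnt10 and Galnt7 of 0.13 and 0.11, none called. Galnt18 had the lowest of the family, -0.46.

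Galnt2, a widely expressed member of the family, had 11 reads over the 6 libraries. In the GENCODE M21 annotation 90.0% of its exon bases are shared with the readthrough gene Gm20388 on the same strand, which was listed at 0 in every library. B3gnt2, the main polylactosamine enzyme of many tissues, had 123 reads, and 66.0% of its exon bases are shared, mostly with the readthrough gene Gm28048, also listed at 0 throughout. B3gnt4 had no reads and shares 93.2% of its exon bases with Diablo on the other strand. How reads in shared exons were assigned is not given in the sources used here, so low values of these 3 genes are uncertain. St6galnac1, whose human counterpart makes the sialyl-Tn antigen, had 6 reads over the 6 libraries and shares no exon base with another gene.

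Core branching and extension. Genes of this step included the highest of all members, and also those that differed most among the libraries labelled WT. Of 14 Gcnt and B3gnt genes, 9 were tested, with 8 positive and 1 negative fold change, a median of 0.58 and 0 called. B3gnt3, which extends the core 1 chain with N-acetylglucosamine, was at 154, 149 and 124 FPKM in the IL10-KO-labelled libraries, against 82.9, 144 and 28.2 FPKM in those labelled WT (log2 fold change 1.01, SE 0.59, adjusted p = 0.614). WT library 2 lay among the IL10-KO values and WT library 3, which had the most muscle and mitochondrial RNA, was far below; their part in it was not tested. The log2 fold change was 0.37 without WT library 3 and 1.53 without WT library 2. B3gnt7 (chromosome 1, 86302832 to 86307305, plus strand), an enzyme of keratan-sulfate-type chains, was at 129, 79.1 and 34.2 FPKM in the IL10-KO-labelled libraries, against 133, 0.824 and 19.3 FPKM in those labelled WT. WT library 1 had the highest value of all and WT library 2 the lowest, so that the range over the WT libraries was 6.20 log2 units. Its log2 fold change was 2.07 (SE 1.45, adjusted p = 0.678), 0.46 without WT library 2 and 3.56 without WT library 1. The exons of B3gnt7 overlap the antisense gene Gm28626 over 12.6% of their bases.

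Gcnt3 (chromosome 9, 70031496 to 70038088, minus strand), the mucin-type core 2 and core 4 branching enzyme, was highest in WT library 2 instead. It was at 38.1, 23.9 and 35.5 FPKM in the IL10-KO-labelled libraries, against 7.0, 179 and 13.2 FPKM in those labelled WT. The 3 libraries labelled IL10-KO lay close together between WT library 2 above and the other two WT libraries below. The log2 fold change was 0.26 (SE 1.09, adjusted p = 0.959), 1.62 without WT library 2 and -0.62 without WT library 1. Gcnt1, another core 2 enzyme, had 14.7, 9.13 and 6.53 FPKM in IL10-KO and 8.96, 1.01 and 3.08 FPKM in WT, lowest in WT library 2. B3gnt5, which starts lacto-series glycolipids, had 5.24, 8.68 and 6.87 FPKM in IL10-KO and 14.5, 0.364 and 4.5 FPKM in WT, again lowest in WT library 2. Gcnt2, the I-branching enzyme, had 6.06, 7.21 and 4.18 FPKM in IL10-KO, all above the 2.78, 3.85 and 3.92 FPKM in WT (log2 fold change 0.58, SE 0.25, adjusted p = 0.503). B3gnt6, the core 3 enzyme, was at 2.97, 1.88 and 10.3 FPKM in IL10-KO and at 0.915, 4.22 and 6.53 FPKM in WT, with broad overlap.

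Galactose and N-acetylgalactosamine chain ends. B3galt5 (chromosome 16, 96235801 to 96319859, plus strand), which makes the type 1 chains of gut epithelium, had the lowest unadjusted p of all members. It was at 170, 118 and 87.9 FPKM in the IL10-KO-labelled libraries, against 51.2, 51.0 and 24.8 FPKM in those labelled WT. The lowest IL10-KO library lay above the highest WT library, but the adjusted p was 0.32 (log2 fold change 1.56, SE 0.42). The means were 125 ± 41.6 FPKM in IL10-KO and 42.4 ± 15.2 FPKM in WT (SD, n = 3 each). B4galt1, the main enzyme of type 2 chains, was at 88.1, 72.5 and 47.6 FPKM in IL10-KO and at 22.5, 62.2 and 12.9 FPKM in WT. Only WT library 2 overlapped the IL10-KO values (log2 fold change 1.31, SE 0.58, adjusted p = 0.507). Without WT library 2 the log2 fold change was 1.91, and without WT library 3 it was 0.82. B4galnt2 (chromosome 11, 95865943 to 95914891, minus strand), which makes the Sda blood-group antigen of the colon, was at 19.9, 21.8 and 7.41 FPKM in IL10-KO, against 4.28, 75.5 and 4.58 FPKM in WT. As for Gcnt3, the IL10-KO libraries lay between WT library 2 and the other two WT libraries. The log2 fold change was 0.28 (SE 1.05, adjusted p = 0.955), 1.55 without WT library 2, -0.38 without WT library 1 and -0.34 without WT library 3. The antisense gene Gm11534 overlaps 15.3% of its exon bases.

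Of the 16 genes in this group 14 were tested, with 8 positive and 6 negative fold changes and a median of 0.20. Without WT library 3 only 5 were positive and the median was -0.12. B4galt3 was at 2.48, 3.41 and 2.89 FPKM in IL10-KO, against 1.70, 1.88 and 1.60 FPKM in WT (log2 fold change 0.52, SE 0.20, adjusted p = 0.463), and 14.5% of its exon bases overlap Ppox on the other strand. B4galnt4, which makes terminal GalNAc-GlcNAc units, was at 1.79, 2.58 and 4.52 FPKM in IL10-KO and at 1.56, 0.787 and 1.43 FPKM in WT (log2 fold change 0.77, SE 0.32, adjusted p = 0.484). For both the groups did not overlap. B4galt7, of the glycosaminoglycan linker, also lay higher in every IL10-KO library, with a log2 fold change of 0.34. B4galt4 and B4galt2 lay lower in every IL10-KO library, at log2 fold changes of -0.26 and -0.72. B4galt2 passed the filter through WT library 3 (3.34 FPKM, against 0.367 to 0.825 FPKM in the other 5), so its position was favoured by the filter. It shares 28.2% of its exon bases with Ccdc24 on the same strand.

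Fucose. Fut2, the secretor enzyme that adds the fucose of the H antigen, dominated its family in every library. Fut2 (chromosome 7, 45648591 to 45666394, minus strand) was at 184, 74.4 and 64.3 FPKM in the IL10-KO-labelled libraries, against 31.0, 34.2 and 16.7 FPKM in those labelled WT. All 3 IL10-KO libraries lay above all 3 WT libraries, and IL10-KO library 1 was more than 1 log2 unit above the next. The means were 108 ± 66.2 FPKM in IL10-KO and 27.3 ± 9.28 FPKM in WT (SD, n = 3 each). The log2 fold change was 1.84 (SE 0.49, adjusted p = 0.325), 1.37 without IL10-KO library 1 and 2.03 without WT library 2. Its relatives Fut1 and Sec1, whose sequences resemble it, were below 1 FPKM in every library. Fut8, which adds core fucose to N-glycans, was at 9.34, 15.5 and 12.0 FPKM in IL10-KO, against 8.91, 3.49 and 5.41 FPKM in WT. Its groups did not overlap either, although IL10-KO library 1 and WT library 1 nearly met (log2 fold change 0.99, SE 0.35, adjusted p = 0.444). Fut4, an enzyme of Lewis x structures, was at 5.81, 9.01 and 8.14 FPKM in IL10-KO and at 12.1, 1.51 and 3.70 FPKM in WT, where the range spanned the IL10-KO values. Its log2 fold change was 0.67, 1.32 without WT library 1 and 0.12 without WT library 2. Fut11 was the fourth gene tested of 8 in the family, with a log2 fold change of -0.18. Fut2 made up 91.3, 73.1 and 73.5% of the summed Fut FPKM in the IL10-KO-labelled libraries and 54.4, 82.0 and 54.0% in those labelled WT.

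Sialic acid. The sialyltransferases held both the highest and the lowest fold change of all members, and both were nearer 0 without WT library 2. St3gal4 (chromosome 9, 35046576 to 35119268, minus strand), which sialylates galactose on type 2 chains, was at 137, 126 and 63.1 FPKM in the IL10-KO-labelled libraries, against 51.9, 1.58 and 26.5 FPKM in those labelled WT. The groups did not overlap, with means of 109 ± 39.8 FPKM in IL10-KO and 26.7 ± 25.2 FPKM in WT (SD, n = 3 each). The log2 fold change was 2.74 (SE 1.07, adjusted p = 0.468), 1.45 without WT library 2 and 3.62 without WT library 1. Its exons overlap 4930581F22Rik on the other strand over 14.1% of their bases. St3gal5 (chromosome 6, 72097592 to 72154571, plus strand), the GM3 ganglioside synthase, was at 0.303, 0.462 and 0.117 FPKM in IL10-KO, against 0.876, 32 and 1.86 FPKM in WT. It passed the filter through WT library 2 alone, and its log2 fold change of -2.13 (SE 1.01, adjusted p = 0.529) was -0.85 without that library.

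St3gal3 was at 18.5, 35.1 and 25.2 FPKM in IL10-KO and at 10.2, 3.80 and 20.1 FPKM in WT (log2 fold change 1.34, SE 0.55, adjusted p = 0.487), with WT library 3 above IL10-KO library 1. St6galnac6, which acts on gangliosides and on Lewis-type chains, was at 98.9, 126 and 82.9 FPKM in IL10-KO and at 53.5, 93.0 and 27.6 FPKM in WT (log2 fold change 0.95, SE 0.48, adjusted p = 0.552). Only WT library 2 reached the IL10-KO range. St6galnac2, which sialylates the first sugar of O-glycans, had a negative fold change, at 2.09, 1.70 and 3.25 FPKM in IL10-KO, against 5.49, 3.53 and 6.99 FPKM in WT. Its groups did not overlap and its adjusted p was 0.403 (log2 fold change -0.91, SE 0.29); 15.2% of its exon bases are shared with 1810032O08Rik and with the second St6galnac2 identifier. St3gal1, which caps core 1, was at 5.87, 5.10 and 4.92 FPKM in IL10-KO and at 1.47, 19.5 and 4.55 FPKM in WT, and St3gal6 at 7.32, 7.22 and 6.76 FPKM in IL10-KO and at 15.6, 0.528 and 7.21 FPKM in WT. Among the IL10-KO libraries both genes were nearly level, while WT library 2 was highest for St3gal1 and lowest for St3gal6. St3gal6 shares 26.0% of its exon bases with Dcbld2 on the other strand. Of 21 sialyltransferase genes, 11 were tested, with 4 positive and 7 negative fold changes and a median of -0.15; with voom on recovered reads 6 were positive and the median was 0.06, and without WT library 1, 7 were positive and the median was 0.14. The tested St8sia gene, St8sia5, had 5.61 FPKM in WT library 1 and no read in the other two WT libraries.

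**Figure D3:**
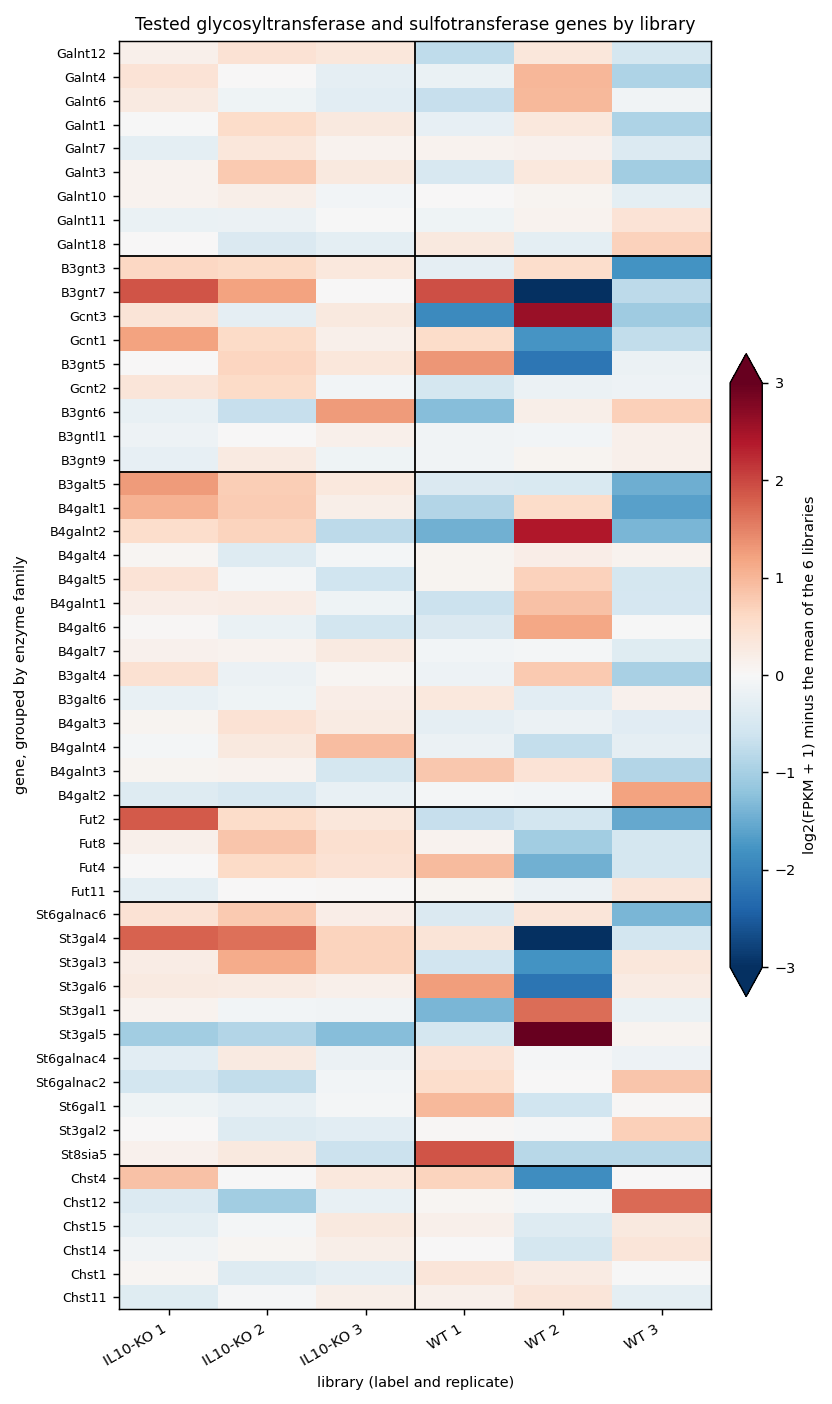
Log2(FPKM + 1) of each tested gene minus its mean over the 6 libraries, with the IL10-KO libraries to the left of the WT libraries; horizontal lines separate the families and colours saturate at 3 log2 units. The strongest colours stand in the column of WT library 2, where B3gnt7 and St3gal4 are low and Gcnt3, B4galnt2 and St3gal5 are high.

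Sulfate. Of 14 Chst genes 6 were tested, with 2 positive and 4 negative fold changes, a median of -0.10 and 0 called. Under TPM scaling 3 of the 6 were positive, as they were without IL10-KO library 1, where the median was 0.05. Chst4, which sulfates N-acetylglucosamine on mucins, was at 22.8, 11.8 and 15.2 FPKM in the IL10-KO-labelled libraries, against 19.5, 2.56 and 12.1 FPKM in those labelled WT (log2 fold change 0.79, SE 0.65, adjusted p = 0.73). Its log2 fold change was 0.05 without WT library 2 and 1.32 without WT library 1. Chst12, a chondroitin sulfotransferase, was at 2.78, 1.45 and 3.30 FPKM in IL10-KO and at 4.22, 3.75 and 15.3 FPKM in WT (log2 fold change -1.11, SE 0.51, adjusted p = 0.515). Its IL10-KO values all lay below the WT values, and the highest value was that of WT library 3, which had the most muscle RNA; the part of muscle in it was not tested. Chst15, of the same chondroitin pathway, was at 1.27, 1.69 and 2.42 FPKM in IL10-KO and at 2.08, 1.12 and 2.41 FPKM in WT, with full overlap. The antisense gene Gm10584 overlaps 17.9% of its exon bases.

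Spread within a label. For 43 of the 53 tested genes (81.1%) the range over the WT libraries was wider than that over the IL10-KO libraries, as for 78.4% of all tested genes. The median range was 0.59 log2 units in IL10-KO and 1.27 in WT, beside 0.47 and 0.91 over all tested genes. No member had a range above 2 log2 units in IL10-KO and 15 (28.3%) did in WT, beside 2.59% and 12.6% of all tested genes. WT library 2 stood alone above the others, by more than 1 log2 unit, for 5 members (9.43%; 4.36% of all tested genes): B4galnt2, B4galt6, Gcnt3, St3gal1 and St3gal5. It stood alone below them for 7 (13.2%; 1.71% of all tested genes): Chst4, B3gnt7, Gcnt1, B3gnt5, St3gal4, St3gal3 and St3gal6. WT library 3 stood alone above for Chst12 and B4galt2 and below for B3galt5 and B3gnt3 (3.77% each). Over all tested genes the shares of WT library 3, 5.27% above and 1.97% below, exceeded those of WT library 2. WT library 1 stood alone above for St8sia5 and below for St3gal1 (0.774% and 0.292% of all tested genes). Among the IL10-KO libraries this occurred once, for Fut2 in library 1 (0.316% of all tested genes). These shares are descriptions, with no test. The mean of 10 goblet cell markers was also lowest in WT library 2, at 6.22, against 7.68 to 8.25 in the libraries labelled IL10-KO and 6.95 and 7.79 in the other two WT libraries. Of the 10, 6 were lowest in WT library 2, while Zg16, Tff3, Fcgbp and Clca1 were not. Their part, and that of position along the colon, in the members' levels was not tested.

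**Figure D4:**
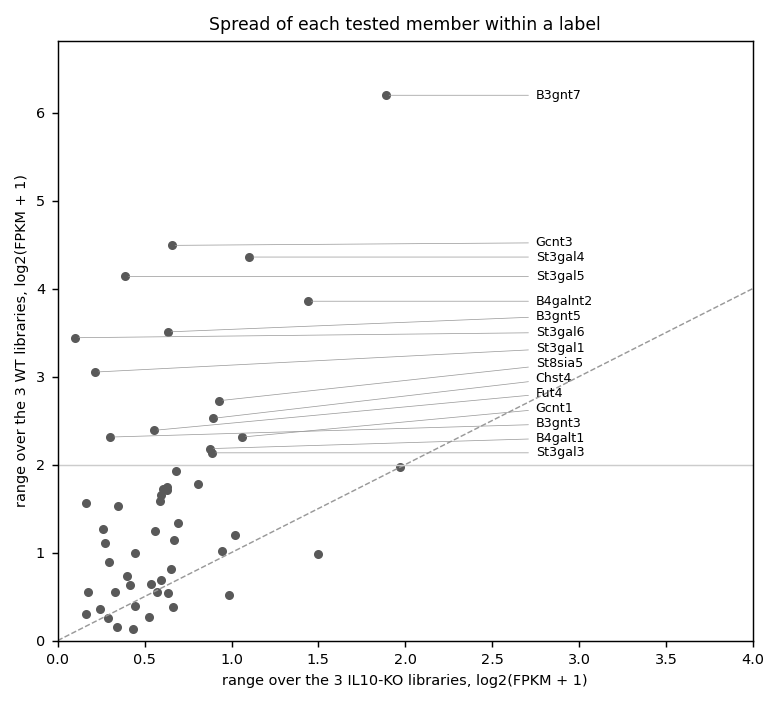
Range of each tested gene over the 3 libraries labelled IL10-KO (horizontal axis) and over the 3 labelled WT (vertical axis), in log2(FPKM + 1); the dashed line marks equal ranges and the 15 genes above 2 units in WT are named. B3gnt7 has the widest WT range, at 6.20 units.

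In several enzyme classes WT library 2 had a make-up unlike that of the other 5 libraries. Gcnt3 took 64.1, 58.0 and 76.1% of the summed Gcnt FPKM in the IL10-KO-labelled libraries, against 37.2, 97.0 and 64.8% in those labelled WT. B3gnt7 took 43.9, 32.6 and 19.0% of the B3gnt sum in IL10-KO and 56.6, 0.538 and 30.6% in WT. St3gal4 led the St3gal class in every library but WT library 2, with 80.4, 72.2 and 62.5% in IL10-KO and 63.7, 2.69 and 42% in WT. In WT library 2 the class was led by St3gal5 (54.5%) and St3gal1 (33.2%), which in the other 5 libraries held 0.116 to 2.95% and 1.81 to 7.21% of it. B3galt5 held 83.3 to 95.6% of the B3galt sum over all 6 libraries, and St6galnac6 70.8 to 94.8% of the St6galnac sum.

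**Figure D5:**
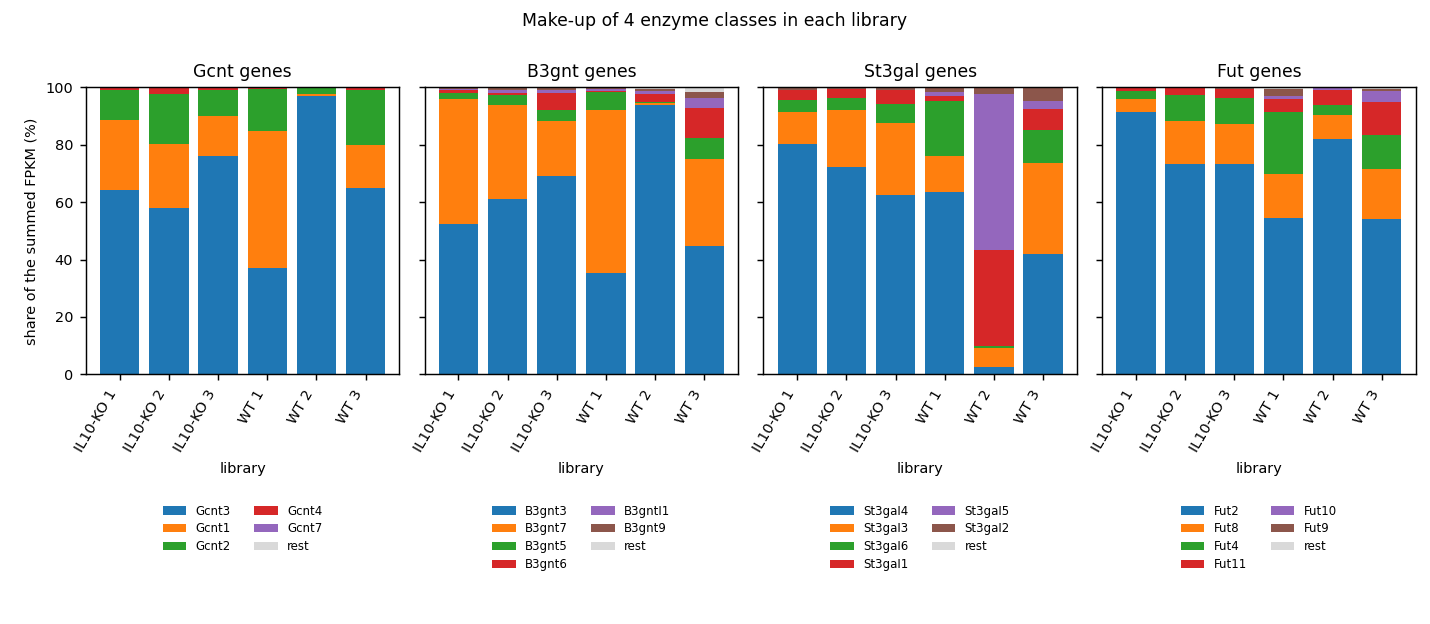
Share of the summed FPKM of the Gcnt, B3gnt, St3gal and Fut classes taken by each gene, per library, IL10-KO to the left of WT; genes beyond the leading 6 are grey. The St3gal bar of WT library 2 differs from the other 5, with St3gal5 at 54.5% and St3gal4 at 2.69%.

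Partner genes. No gene of the 4 partner lists passed the threshold. Of 14 core 1 and terminal enzymes outside the name rule, 11 were tested, with 4 positive and 7 negative fold changes and a median of -0.19. C1galt1, the core 1 synthase, was at 32.8, 44.0 and 33.5 FPKM in IL10-KO, against 22.8, 24.4 and 18 FPKM in WT (log2 fold change 0.73, SE 0.27, adjusted p = 0.455). Abo, which turns the H antigen into A or B, was at 5.03, 3.21 and 2.56 FPKM in IL10-KO, against 1.68, 0 and 0.443 FPKM in WT (log2 fold change 1.52, SE 0.41, adjusted p = 0.325). In both genes the groups did not overlap, with IL10-KO higher. B3galnt1, the globoside synthase, lay lower in every IL10-KO library (log2 fold change -1.29), as did the galactose sulfotransferase gene Gal3st2c, at 0.0082, 0 and 0 FPKM in IL10-KO, against 1.85, 71.6 and 0.496 FPKM in WT, highest in WT library 2. B3galnt1 and Gal3st2c passed the filter through the WT libraries and Abo through those labelled IL10-KO, which favoured these directions. Of 25 names of sugar-nucleotide and sulfate donor genes, 22 were tested, 16 positive and 6 negative, with a median of 0.35. Gfpt1, the entry enzyme of hexosamine synthesis, and the sulfate donor transporter gene Slc35b3 lay higher in every IL10-KO library, at log2 fold changes of 0.44 and 0.37. Of 10 glycosidase genes 7 were tested, 3 positive and 4 negative, with a median of -0.01. The mucin genes that carry these chains had a median of 1.17 over 6 tested of 14 listed names, 4 positive and 2 negative. The negative ones were Muc3 (log2 fold change -0.36), highest of all 6 libraries in WT library 2 at 4162 FPKM, and Muc3a (-0.21). Muc1, a membrane mucin, was at 6.59, 9.84 and 10.5 FPKM in IL10-KO, against 2.96, 0.355 and 2.41 FPKM in WT (log2 fold change 1.90, SE 0.43, adjusted p = 0.236). Muc2 was at 212, 401 and 509 FPKM in IL10-KO and at 175, 48.2 and 373 FPKM in WT, with overlap, lowest in WT library 2.

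Without WT library 2, a setting added after the data were seen, the 3 libraries labelled IL10-KO lay above both remaining WT libraries for 18 members and below them for 9. That compares with 26.4% and 17.4% of all tested genes; fewer libraries make such a separation more frequent. The genes on the higher side only in that setting were B4galt1, B4galnt1, B4galnt2, Gcnt3, B3gnt3, St3gal1, St6galnac6, Galnt1, Galnt3 and Galnt12, and those on the lower side only there were Fut11, Galnt18, St6gal1 and St3gal2. None was called. Of the epithelial markers 13 of 16 lay higher in every IL10-KO library in that setting, against 1 of 16 with all libraries; the part of epithelial content in these members' levels was not tested. Of the smooth muscle markers 11 of 12 lay lower in every IL10-KO library over all 6 libraries.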

How the data were processed

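Sample titles gave group and replicate number. An NEBNext Ultra kit was used on total colon RNA, per the labels' protocols. Bowtie 0.12.2 and the builds mm8 and hg38 are named, without roles, per the submitters' processing notes. The authors deposited FPKM values in 1 table; the counting tool, strand setting and treatment of multiply mapping reads are not stated there. Of 54409 gene identifiers found in GENCODE M21, 98.3% had identical coordinates there, 88 of the 92 members included, so coordinates are given as GRCm38. FPKM times gene length gave whole multiples of 1 step per library (tolerance 0.01) for 100% of values above 0, from which reads were recovered.

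Values were tested as log2(FPKM + 1) with limma 3.58.1 in R 4.3.3 (eBayes with the mean trend, no block), over 12668 genes (mean FPKM over the 6 libraries 1 or more; 13107941 to 15797928 recovered reads per library), with Benjamini-Hochberg adjustment and a threshold of 0.05. On this scale a fold change understates that of low genes. The fit was tested on simulated normal values with the same spread in both labels and no outlying library. That test does not cover the wider spread among the WT libraries. Genes named with values in every library are those called, those with non-overlapping groups and an unadjusted p under 0.05, and the 3 with the highest mean in each of 6 family groups (21 in all); others with values per library, such as St3gal5, Gcnt1 and Muc2, were chosen after their values were seen. Members and lists were chosen with earlier results of these data known. Alternatives changed the pseudocount, the filter, the scaling, the trend, the weight per library, the replicate block or the test (voom on recovered reads), or left out 1 library. Tables were made with pandas 2.3.3 and numpy 2.4.6 in Python 3.11.15, figures with matplotlib 3.10.9.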

Additional observations from a re-analysis of the deposited data

How the results depend on the processing

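No member was called under any of the 16 alternatives; the lowest adjusted p of a tested member was 0.0584 (Galnt12, with a weight per library). The number of all genes called higher, 23, was 4 without a filter, 44 with TPM, 237 with a weight per library, 7 with the replicate block and 2 with voom on recovered reads, and 4 to 27 when 1 library was left out. The number called lower, 0 (510 at an unadjusted p under 0.05), was 1 with a filter at 5 FPKM, 2 with TPM, 1 with quantile normalization, 94 with a weight per library, and 0 to 3 when 1 library was left out. The weights were 1.01, 2.62 and 1.49 for IL10-KO libraries 1 to 3 and 2.76, 0.198 and 0.465 for WT libraries 1 to 3, so WT library 1 counts most among the WT libraries there. TPM moved the median of all genes by 0.11 (log2). The labels state no pairing by replicate number. Deviations from the label mean correlated at -0.149, 0.18 and 0.396 for same-numbered libraries, and at -0.388 to 0.177 for differently numbered ones. So few values cannot settle whether the libraries are paired. The block changed no member's call.

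Of the 21 named genes 13 kept the direction of their log2 fold change throughout. With a weight per library Chst4 was at -0.17, Fut4 at -0.20, Galnt6 at 0.41 and B3gnt7 at -0.22, and with TPM Chst15 was at 0.057. When 1 library was left out the values ran from -0.23 to 0.11 for Chst15, from -0.35 to 0.62 for Galnt4, from -0.49 to 0.34 for Galnt6, from -0.38 to 1.55 for B4galnt2 and from -0.62 to 1.62 for Gcnt3. The cause was not tested. B3galt5 (1.23 to 1.79), Fut2 (1.37 to 2.12) and St3gal4 (1.45 to 3.62) stayed positive. Without WT library 3, 26 of 53 members were positive, against 31 with all libraries. With no filter 89 members were tested and with one at 0.1 FPKM 80; none was called. The 3 members with no read could not be compared.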
